A study of Mus musculus with 5 samples.

Results

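The flanks of Idh1 are the CpG positions on chromosome 1 (mouse build mm9) from base 55000000 to base 75000000 read 10 or more times in each of the 5 libraries. They numbered 2013, of 284439 such positions on all chromosomes, and the rest of chromosome 1 held 14924. Idh1 lies near the middle of this interval, with about 10 Mb on each side. The members were chosen by place and depth only, not by level. There were 3 libraries from Idh1-R132H knock-in mice and 2 from wild-type mice, all labelled with the strain background 129Ola x C57Bl/6J. Each library was genomic DNA of bone marrow LSK cells (Lin-, Sca1+, Kit+), which include the stem and early progenitor cells of blood. The methylation assay, extended reduced representation bisulfite sequencing, reads CpG-rich fragments cut by MspI, and a level is the percent of reads that kept a C at a CpG cytosine. The labels give neither the zygosity of the knock-in, nor a Cre or promoter, nor whether each library is a separate animal, so p-values cover only library-to-library spread, part of which may be technical. DNA methylation libraries hold no expression values, so the LSK label was not checked against marker levels.

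The Idh1 enzyme converts isocitrate to 2-oxoglutarate in the cytosol, and its R132H form makes 2-hydroxyglutarate, which can inhibit the TET enzymes that oxidise methylated cytosine. A knock-in made in embryonic stem cells of one strain keeps a segment of that strain around the edited gene until recombination breaks it up, so cells of knock-in and wild-type mice can differ near the gene by strain as well as by the mutation. In this design the mutation and any such linked segment cannot be told apart. CpGs are prone to change between strains, because methylated cytosine deaminates to T. Where positions are taken from the reference build, a T of that kind in one strain reads like an unmethylated C.

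Depth differed between libraries. The 2013 members had a median coverage of 61 (knock-in replicate 1), 25 (knock-in replicate 2) and 136 reads (knock-in replicate 3), against 18 and 38 in wild-type replicates 1 and 2. The tables listed 7999, 4856 and 13795 positions of the interval in the knock-in libraries, against 3175 and 7774 in the wild-type libraries, and 15952 in any library. Over the whole genome, replicates 1 and 3 of the knock-in and replicate 2 of the wild-type list over 1000000 positions and are called the deep libraries.

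The promoters around the locus show what kind of DNA was read. With no mm9 annotation in the sources used, promoter windows of 300 bases were placed by matching the spacing of CpGs in RefSeq sequences (GRCm38.p6) with the listed positions, which placed 76 windows of 66 genes in the interval. Of these, 2 belong to Idh1 and are shown because the edited gene is at the centre of the comparison. CpGs are in capitals, and the sequences run 5′ to 3′ on the minus strand.
Idh1, inner window, chr1:65225667-65225966: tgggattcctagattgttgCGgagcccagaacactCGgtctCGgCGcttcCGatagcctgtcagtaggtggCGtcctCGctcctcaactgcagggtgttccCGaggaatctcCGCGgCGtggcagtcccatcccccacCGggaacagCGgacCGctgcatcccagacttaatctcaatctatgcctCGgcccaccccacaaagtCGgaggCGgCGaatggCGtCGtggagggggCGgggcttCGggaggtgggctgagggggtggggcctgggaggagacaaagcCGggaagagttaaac
Idh1, outer window, chr1:65233004-65233303: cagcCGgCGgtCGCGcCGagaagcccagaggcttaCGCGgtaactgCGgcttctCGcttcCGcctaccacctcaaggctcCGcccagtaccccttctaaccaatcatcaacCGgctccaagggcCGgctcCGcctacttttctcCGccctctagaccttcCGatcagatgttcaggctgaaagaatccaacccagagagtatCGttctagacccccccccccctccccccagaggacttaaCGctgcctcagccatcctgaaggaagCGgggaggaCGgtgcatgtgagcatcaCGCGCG
The inner window has 23 CpGs, of which 10 were listed in any library, and the outer window has 23, of which 11 were listed. The outer window overlaps the promoter window of Pikfyve, a phosphoinositide kinase gene on the plus strand.

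Both Idh1 stretches were at or near 0% in all 5 libraries. In the inner stretch, from 65225564 to 65226045, no methylated read was found among 577, 266 and 1503 reads summed over CpGs in knock-in replicates 1, 2 and 3, against none of 164 and 345 in wild-type replicates 1 and 2. A count of 0 allows a level of up to 0.52%, 1.13% and 0.2% in the knock-in libraries, against up to 1.83% and 0.87% in the wild-type libraries, for counting error only. In the outer stretch, from 65233142 to 65233484, 0 of 1034, 0 of 250 and 1 of 1639 reads were methylated in the knock-in libraries, against 0 of 23 and 1 of 641 in the wild-type libraries. The remaining 20 listed positions of the interval were listed by few libraries each. Levels of 80% or more were found at 4 of 5, 5 of 5 and 8 of 16 of them in knock-in replicates 1, 2 and 3, against 1 of 1 and 2 of 3 in wild-type replicates 1 and 2, and 7 of the 16 in knock-in replicate 3 were at 10% or less. The 1 of the 20 that had enough reads in all libraries, at 65222985, read 100%, 100% and 97.2% in knock-in and 100% in both wild-type libraries. Of 74 listed positions in the Idh1 interval 5 were members, and the nearest members outside it lay 138.8 kb before and 169.3 kb after it. Of the 1 kb tiles with at least 3 members, the 1 inside Idh1 read 0% in all 5 libraries. The nearest tile before the gene had 94.9% ± 4.56 over knock-in libraries (SD, n = 3), against 94.9% ± 7.20 over wild-type libraries (SD, n = 2), and the nearest after it had 95.9% ± 3.53 over knock-in libraries (SD, n = 3), against 97.3% ± 3.82 over wild-type libraries (SD, n = 2).

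**Figure D1:**
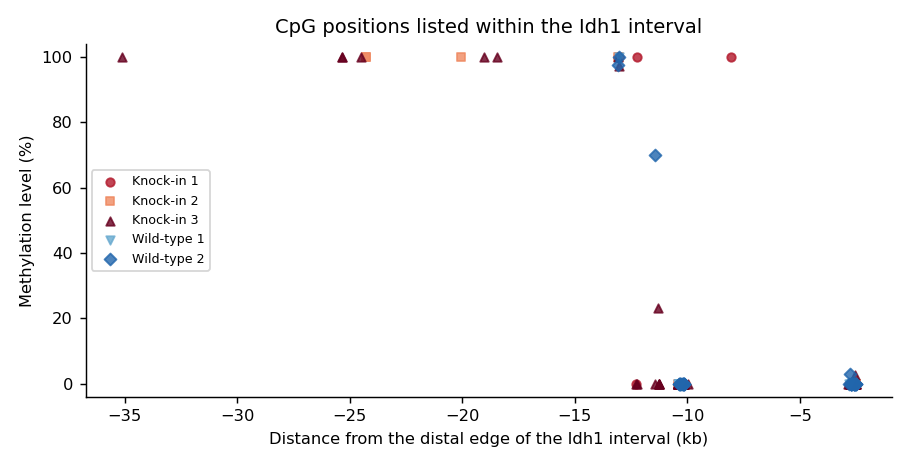
Methylation level (y axis, percent) of each CpG position listed within the Idh1 interval, against its distance in kb from the distal edge of the interval; each point is 1 position in 1 library, red shades for knock-in and blue shades for wild-type. The 2 promoter stretches, about 10 kb and 3 kb from the edge, sit at or near 0% in all libraries, and the low positions about 11 kb from the edge come mainly from knock-in replicate 3.

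Across the flanks, the level was 16.1%, 16.5% and 15.5% in knock-in replicates 1, 2 and 3, against 15.6% and 15.4% in wild-type replicates 1 and 2. The groups overlapped, and the difference of 0.545 points did not stand out from the spread (exact permutation test, 2-sided, p = 0.3, where 0.1 is the smallest p that 5 libraries allow). With 20 reads required the difference was 0.194 points. It came to 0.317 points with knock-in replicate 2 left out and to 0.821 points with knock-in replicate 3 left out. On the rest of chromosome 1 the level was 20.3% ± 0.334 over knock-in libraries (SD, n = 3), against 19.6% ± 0.227 over wild-type libraries (SD, n = 2), a difference of 0.619 points (exact permutation p = 0.2). The flank level minus that of the rest of the chromosome was -4.27, -4.06 and -4.43 points in the knock-in libraries, against -3.91 and -4.44 points in the wild-type libraries, so the difference was -0.0742 points (exact permutation p = 0.8). The flanks hold more unmethylated CpGs than the rest: 82.2% of members against 77.7% of the other positions had a mean level under 20%, and 13.4% against 18.3% had 80% or more.

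The intermediate class moved in the same direction in both regions. Its 88 flank CpGs, with a mean of 20 to 80%, read 60.7% ± 4.96 over knock-in libraries (SD, n = 3), against 53.0% ± 1.69 over wild-type libraries (SD, n = 2), a difference of 7.66 points (exact permutation p = 0.2). The 604 such CpGs on the rest of chromosome 1 differed by 6.02 points (exact permutation p = 0.1). Median depth was above that of both wild-type libraries in 2 of the 3 knock-in libraries, and its part in these values was not tested.

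Levels were also compared by distance from Idh1, in 4 classes for which the design could not reach an adjusted p under 0.05. The groups overlapped in the 3 classes within 5 Mb. Beyond 5 Mb they did not overlap, with higher levels in the knock-in libraries, at 16.1%, 16.6% and 15.7% against 15.5% and 15.6%. The same held outside the flanks, so it is not particular to this class. The rest of chromosome 1 read 20.4%, 20.5% and 19.9% in knock-in against 19.5% and 19.8% in wild-type libraries. The other autosomes read 21.2%, 21.3% and 20.6% against 20.2% and 20.4%. Within 1 Mb (239 CpGs) the level was 14.8% ± 0.771 over knock-in libraries (SD, n = 3), against 14.5% ± 0.0421 over wild-type libraries (SD, n = 2), a difference of 0.385 points (exact permutation p = 0.6, 0.8 after Benjamini-Hochberg adjustment over 4 classes), which was -0.157 points with 20 reads required. From 1 to 3 Mb (243 CpGs) it was 0.804 points (exact permutation p = 0.3, adjusted 0.6), but -0.351 points with 20 reads required and 0.0142 points when weighted by reads. At 3 to 5 Mb (209 CpGs) it was -0.126 points (exact permutation p = 0.8, adjusted 0.8), but 0.465 and 0.567 points under the same alternatives. Leaving out wild-type replicate 1 gave 1.04 points, wild-type replicate 2 gave -1.29, knock-in replicate 1 gave -0.625 and knock-in replicate 3 gave 0.301. The difference beyond 5 Mb (1322 CpGs) was 0.632 points (exact permutation p = 0.2, adjusted 0.6). In the 16 windows of 1 Mb with at least 20 members, differences ran between -0.638 and 3.81 points, the last in the window from 62 Mb.

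**Figure D2:**
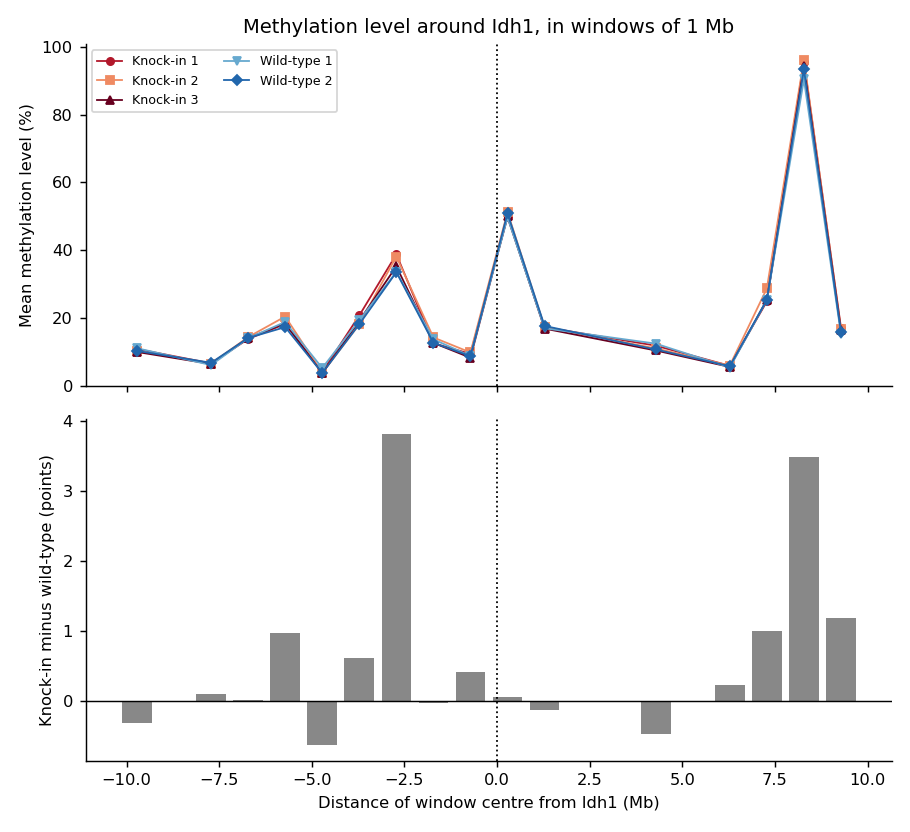
Upper panel, mean methylation level (percent) of each library in windows of 1 Mb with at least 20 members, against the distance of the window centre from Idh1 (Mb, dotted line at the gene); lower panel, the difference of group means in percentage points. The lines of the 5 libraries lie close together, and the window differences run between -0.638 and 3.81 points.

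No member passed a test of single positions or tiles. The edgeR quasi-likelihood test on methylated and unmethylated reads called 0 of 2013 positions at an adjusted p under 0.05 (background 0.000356% of 280635 autosomal positions), and at an unadjusted p under 0.05 it called 2 higher and 0 lower (background 0.266%). Of 163 tiles it called 0 (background 0%), and at an unadjusted p under 0.05 it called 3 higher and 4 lower (background 1.59%). The limma test on arcsine square root levels called 0 positions and 0 tiles too, with 20 higher and 8 lower positions (background 1.86%) and 4 higher and 2 lower tiles (background 3.66%) at an unadjusted p under 0.05. In simulated data edgeR missed changed tiles when the spread between libraries was set wide, so its 0 calls do not show that levels were alike.

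The placed promoters of 40 genes had at least 3 members, and 35 of them were under 5% in all 5 libraries. Knock-in minus wild-type differences over these 40 ran between -1.59 and 2.16 points, with 34 within 1 point. Both Sf3b1, a splicing factor gene, and Hspd1, which encodes a mitochondrial chaperonin, were under 0.5% in every library, as were Creb1, a transcription factor gene, and Fzd5, which encodes a Wnt receptor. Erbb4, a receptor tyrosine kinase gene, read 5.47%, 0% and 0% in knock-in replicates 1, 2 and 3, against 0.741% and 0% in wild-type replicates 1 and 2, so 1 knock-in library set its difference. Among these 40 genes, the 1 promoter window at 50% or more in every library was at Boll, a germ cell RNA-binding protein gene. It read 56.7%, 58.3% and 50.9% in knock-in against 62.2% and 51.6% in wild-type libraries. The windows of Gm13748, 1700027A15Rik and Tnp1, with under 3 members each, were also at 50% or more in every library. Another placed Boll window held no member and read 0% at the 4 and 13 positions that knock-in replicates 1 and 3 listed. The Zdbf2 promoter, of an imprinted gene, read 5.00%, 12.1% and 5.79% in knock-in against 8.33% and 9.77% in wild-type libraries. Of a list of 24 genes with known roles in the interval, 12 were placed. The Cflar, Bmpr2, Nrp2, Pikfyve, Map2 and Igfbp2 windows among these held no member.

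Positions where the groups did not overlap and their means were at least 10 points apart were counted in the flanks and elsewhere. Of 2013 members 30 were higher in all knock-in libraries (1.49%; background 2.02%) and 11 were lower (0.546%; background 0.76%), and on the rest of chromosome 1 the shares were 1.90% and 0.730%. By distance, 1 of 239 members was higher within 1 Mb, 9 of 243 (3.70%) at 1 to 3 Mb, 2 of 209 at 3 to 5 Mb and 18 of 1322 (1.36%) beyond 5 Mb. Lower members numbered 2, 2, 1 and 6 in the same order of distance. Some of the 9 lie together in the cluster 2.36 Mb before Idh1 that is described below, so they are not independent. With 1 library left out, fewer libraries have to meet the no-overlap rule, so the counts can rise for that reason alone. Without wild-type replicate 2 they were 74 higher and 49 lower (3.68% and 2.43%, against 5.20% and 2.65% of autosomal positions). With wild-type replicate 1 left out they were 67 and 24. Leaving out knock-in replicates 1, 2 and 3 in turn gave 42 and 28, 38 and 27, and 54 and 21. These positions were found by their levels, so the values that follow are a description with no test. Of the 41, 3 lay within 1 Mb of Idh1, the nearest 418.3 kb before it. The 41 positions fell in 30 tiles of 1 kb. Among the 163 tiles, counted with no minimum difference, 12 were higher in all knock-in libraries (7.36%; background 8.98%) and 8 lower (4.91%; background 3.61%).

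The largest gap between groups was in a cluster 2.36 Mb before Idh1, where 3 positions 21 bases apart at most differed. At 62842381 the levels were 64.5%, 70.0% and 44.4% in knock-in replicates 1, 2 and 3, against 13.3% and 12.5% in wild-type replicates 1 and 2, on 31, 10 and 63 reads against 15 and 24 reads. All 3 knock-in libraries lay 31.1 points or more above the wild-type libraries there. The tile held 58.3% ± 18.8 over knock-in libraries (SD, n = 3), against 21.1% ± 14.0 over wild-type libraries (SD, n = 2) (edgeR adjusted p = 1). Among higher tiles whose groups did not overlap, the next largest difference was at 72687000, with 48.4% ± 16.1 over knock-in libraries (SD, n = 3), against 23.1% ± 10.4 over wild-type libraries (SD, n = 2). It was followed by a tile at 72244000, with 92.2% ± 6.92 over knock-in libraries (SD, n = 3), against 81.1% ± 4.36 over wild-type libraries (SD, n = 2). A tile at 63493000, 0.486 kb beyond the placed promoter window of Adam23, read 4.82%, 17.4% and 1.50% in knock-in against 0% in both wild-type libraries, and a tile at 59541000, 1.96 kb from that of the Wnt receptor gene Fzd7, had 97.0% ± 2.83 over knock-in libraries (SD, n = 3), against 89.7% ± 0.433 over wild-type libraries (SD, n = 2). Among the 5 lower tiles with the largest differences, the tile at 61194000 differed by -10.4 points. There the level was 96.6%, 74.1% and 96.5% in knock-in against 100% and 99.0% in wild-type libraries, so knock-in replicate 2 set most of the difference, and the tiles at 55292000, 66616000, 55596000 and 60466000 were lower by -9.60, -8.63, -5.19 and -3.82 points. At 60466000 wild-type replicate 1 alone set the difference, with 7.57%, while the other 4 libraries lay under 0.2%.

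**Figure D3:**
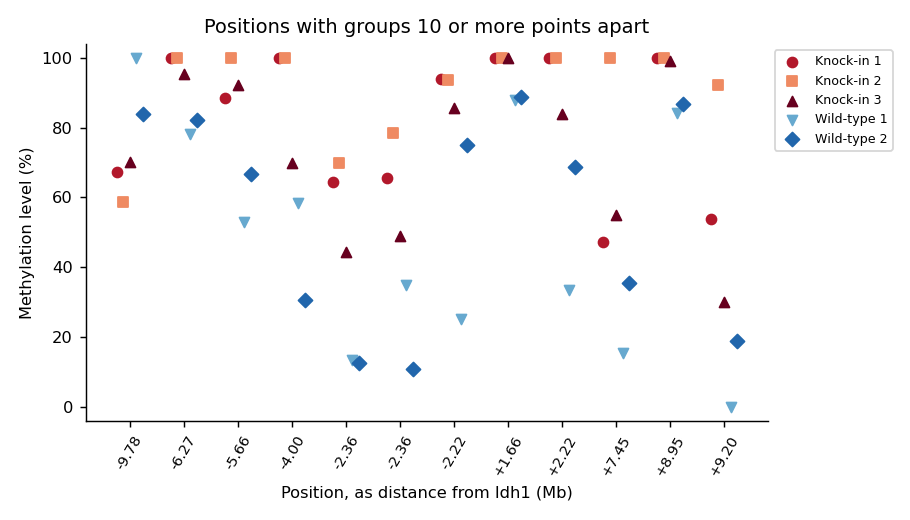
Methylation level (y axis, percent) in each library at the 12 positions whose groups lie 10 or more points apart at their nearest libraries, ordered by distance from Idh1 in Mb; red shades are knock-in and blue shades wild-type libraries. At 11 of the 12 all knock-in libraries lie above both wild-type libraries, and the cluster at 2.36 Mb before the gene has the widest gap. The 12 were picked by their levels, and the split at this cut was not counted outside the flanks. With means 10 points apart, 5675 autosomal positions were higher and 2133 lower in knock-in libraries.

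Of the separated positions 5 lie in the methylated window placed at Boll and lie close together on 1 strand, so they are not independent of each other. At 55419773 the levels were 88.0%, 65.3% and 43.9% in knock-in against 13.6% and 41.9% in wild-type libraries, and at 55419796 they ran the other way, at 67.3%, 58.7% and 70.1% in knock-in against 100% and 83.9% in wild-type libraries. In Zdbf2, the position at 63319892 read 8.66%, 0% and 1.82% in knock-in against 40.0% and 18.6% in wild-type libraries, on 127, 11 and 110 reads against 10 and 43 reads.

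No member was switched between nearly unmethylated in one genotype (10% or less in each library) and methylated in the other (50% or more). Nor was any of 14924 positions on the rest of chromosome 1 or of 263698 on the other autosomes, so this does not set the flanks apart. Of the 5949 flank positions with at least 10 reads in the deep libraries, 0 were switched. On the rest of chromosome 1, 9 of 45035 deep-library positions were. Relaxed limits of 20% and 40% left 1 member (0.0497%), against 0% on the rest of chromosome 1 and 0.0072% on the other autosomes. Over deep-library positions the relaxed share was 0.101% in the flanks, against 0.113% on the rest of chromosome 1 and 0.137% on the other autosomes.

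Positions listed in one genotype and missing in the other were counted against the rest of the chromosome. Listed in both deep knock-in libraries and in no wild-type library were 686 of 6696 flank positions (10.24%, 95% Wilson interval 9.54 to 10.99), against 11.4% on the rest of chromosome 1. These 686 positions fell in 296 stretches, so they are not independent, and the interval, which takes them as independent, is too narrow. Listed in the deep wild-type library and in no knock-in library were 137 of 7774 (1.76%, interval 1.49 to 2.08), against 1.39% (interval 1.30 to 1.49) on the rest of the chromosome. The 137 positions had a median of 12 reads in wild-type replicate 2, against 27 over all flank positions it listed, 105 of them had 10 to 15 reads, and they fell in 66 stretches, so these counts are not independent. With at least 20 reads required, 5 of 5437 were listed in wild-type only (0.0920%), against 0.0924% on the rest of the chromosome. By distance the knock-in-only share was 7.77% within 1 Mb, 14.1% at 1 to 3 Mb, 12.8% at 3 to 5 Mb and 9.37% beyond 5 Mb. With at least 20 reads required it was 2.07%, 5.62%, 6.11% and 2.43% in the same order of distance, against 3.39% on the rest of chromosome 1. When a position had to be listed in all 3 knock-in libraries, it was 2.63%, 1.35%, 5.75% and 1.11%, against 2.08%. The wild-type-only share was 1.02% within 1 Mb, 3.59% at 1 to 3 Mb, 1.08% at 3 to 5 Mb and 1.55% beyond 5 Mb. The window from 62 Mb had the highest wild-type-only share on the chromosome among 136 windows with at least 100 positions listed, 6.04% of 182. That is 11 positions, and the window from 14 Mb, outside the flanks, had 5.97% of 134. The window from 63 Mb ranked 7th with 4.14% of 555. With at least 20 reads required, wild-type-only positions numbered 2 of 589 within 1 Mb and 2 of 790 at 1 to 3 Mb. At 3 to 5 Mb they numbered 0 of 552, and beyond 5 Mb 1 of 3506.

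**Figure D4:**
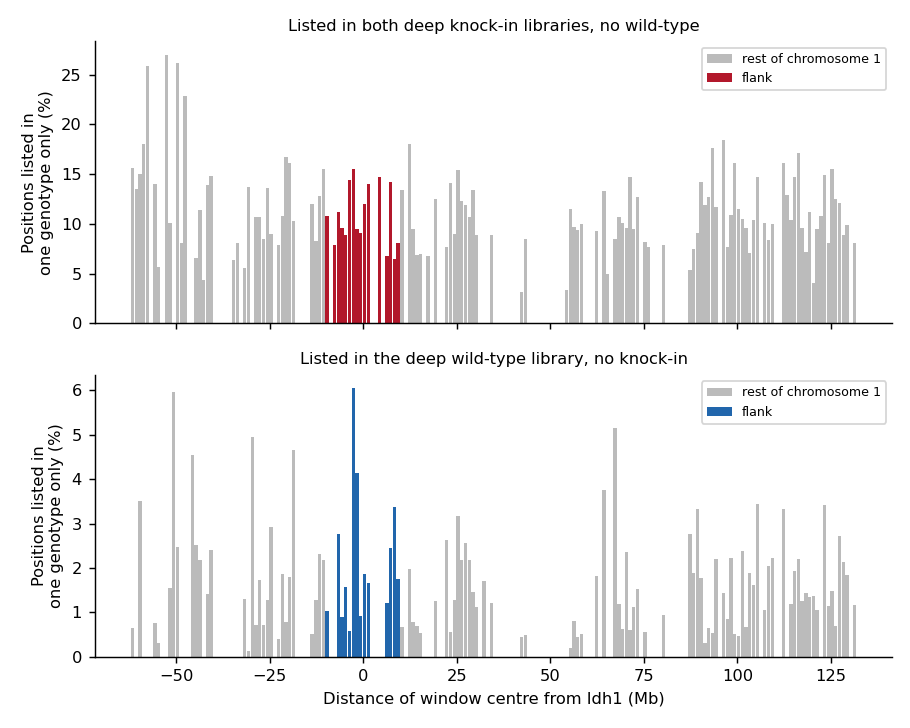
Share of positions (y axis, percent) listed in both deep knock-in libraries and no wild-type library (upper panel) and in the deep wild-type library and no knock-in library (lower panel), in windows of 1 Mb with at least 100 listed positions, against distance from Idh1 (Mb); coloured bars are the flanks and grey bars the rest of chromosome 1. The window from 62 Mb has the highest wild-type-only share, 6.04%, and the window from 14 Mb, outside the flanks, has 5.97%.

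Some missing positions lay between neighbours with reads on both sides. A position was counted when the nearest listed positions of the same strand on both sides, within 30 bases, had at least 20 reads in the library that missed it, a rule made after such positions had been seen. Of 3013 flank positions listed in both wild-type libraries 2 were missed in this way by at least 2 knock-in libraries, against 0 of 21736 on the rest of chromosome 1 and 1 of 386562 on the other autosomes. The opposite case, listed in all 3 knock-in libraries, in no wild-type library and missed in this way by at least 1 of them, counted 0 of 3573 in the flanks, 10 of 26360 on the rest of chromosome 1 and 123 of 469645 on the other autosomes. The same was counted over wider sets. Among positions listed in at least 1 wild-type library, knock-in gaps numbered 2 of 7936 positions in the flanks, 2 of 60038 on the rest of chromosome 1 and 40 of 1073435 on the other autosomes, and among positions listed in at least 2 knock-in libraries, wild-type gaps numbered 9 of 7316, 45 of 56040 and 1001 of 1002664. With 2 positions this is a description only, and strain, sequence and mapping were not tested. The deep libraries listed no flank position with under 10 reads, so a position that is not listed may still have had some reads.

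The first, 62753247 on the plus strand, lies 3.307 kb beyond the placed promoter of Nrp2, a semaphorin and VEGF co-receptor gene, 2.45 Mb before Idh1. No knock-in library listed it, against 13 and 36 reads, all unmethylated, in wild-type replicates 1 and 2. The position 17 bases before it had 108, 34 and 134 reads in knock-in against 13 and 36 reads in wild-type libraries and that 2 bases after it had 109, 33 and 158 reads in knock-in against 13 and 34 reads in wild-type libraries. The second, 66514710, lies 1.28 Mb after Idh1 and was listed in no knock-in library, against 13 and 39 reads, all unmethylated, in the wild-type libraries. The position 14 bases before it had 22, 12 and 63 reads in knock-in against 13 and 39 reads in wild-type libraries, and that 2 bases after it had 39, 34 and 96 reads in knock-in against 13 and 38 reads in wild-type libraries. At both positions every neighbour in every library was under 4% methylated.

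A further position, 64737422, was listed in no knock-in library, against 20 and 21 reads in the wild-type libraries, and it is 0.463 Mb before Idh1 inside the placed promoter of 2810408I11Rik. Its CpG, the only one of the 33 in the window in capitals here, is shown because it is nearest to Idh1.
2810408I11Rik, chr1:64737184-64737483, minus strand: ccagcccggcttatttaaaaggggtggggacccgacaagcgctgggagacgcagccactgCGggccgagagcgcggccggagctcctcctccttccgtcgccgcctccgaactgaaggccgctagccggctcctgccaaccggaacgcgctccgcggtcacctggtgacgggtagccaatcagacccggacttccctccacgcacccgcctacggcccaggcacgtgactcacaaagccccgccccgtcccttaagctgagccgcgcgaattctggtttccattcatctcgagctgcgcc
The position 5 bases before it had 13 and 67 reads in knock-in replicates 2 and 3 against 20 and 21 reads in the wild-type libraries, and that 11 bases after it had 17 and 90 reads against 19 and 20 reads. Knock-in replicate 1 listed none of these neighbours, so 2 libraries carry this case. In the opposite direction, 65184316, which is 15.7 kb before Idh1, was listed with 43, 24 and 26 reads, all methylated, in knock-in and in no wild-type library, but no neighbour within 30 bases was listed in any library.

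**Figure D5:**
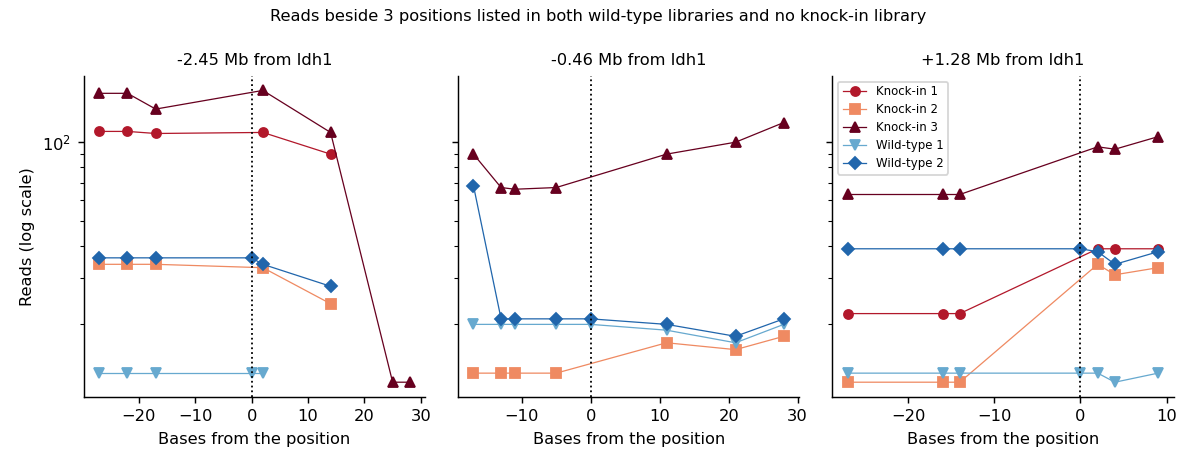
Reads (y axis, log scale) at listed positions on the plus strand within 30 bases of 3 positions that both wild-type libraries list and no knock-in library lists, against distance in bases (dotted line at the position itself); each line is 1 library, red shades for knock-in and blue shades for wild-type. Knock-in libraries have reads on both sides of the dotted line and none on it, except that knock-in replicate 1 lists nothing in the middle panel.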

How the data were processed

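The authors deposited 1 table per library of CpG positions with a coverage count and the percent of reads with C and with T. Submitters' processing notes name CASAVA 1.7, Bismark and mm9, and no filter or duplicate step is given in the sources used here. Methylated and unmethylated reads were the coverage count times each deposited percent. Members were joined by position and strand at 10 or more reads in all 5 libraries, and levels were averaged over positions without weights. Levels were compared by exact permutation. Positions and 1 kb tiles of at least 3 positions were tested over all autosomes with edgeR 4.0.16 and, as an alternative, limma 3.58.1, with Benjamini-Hochberg adjustment. In limma, a position whose level was equal in all libraries took the highest possible p-value. The tests were run on simulated data with a wide spread and, because edgeR then recovered no changed tile, again with a narrow one, in which it recovered most. The dispersion that edgeR estimated for the real tiles was above both. limma recovered nearly all changed tiles in both, and called a few unchanged ones. Changed tiles were raised by more than 37.2 points, the largest knock-in minus wild-type difference of any flank tile. Recovery of smaller changes was not tested. Promoters were placed where at least 6 CpGs and 30% of the CpGs of a sequence were listed, with at least 2 times as many as at the next best place; the 30% was set after placements had been seen, and no 2 neighbours were out of order. Named tiles are those nearest to and inside Idh1 and the 5 largest in each direction among tiles whose groups did not overlap. The members and lists were chosen with earlier results of these data known. Alternatives included 20 reads, read weighting and leaving out each library. Intervals cover counting error only, since PCR reads without identifiers are not independent molecules.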

Additional observations from a re-analysis of the deposited data

How the results depend on the processing

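No paired analysis was possible because the replicate numbers were given in accession order within each group and the labels hold none that pair libraries. The flank difference was positive under each alternative run: 0.194 points with 20 reads, 0.362 for a flank of 5 Mb, and 0.317 to 0.821 with 1 library left out; no alternative could reach an exact p under 0.05. The flank minus rest of chromosome 1 difference ran between -0.340 and 0.191 points, and it changed sign when either knock-in replicate 3 (0.0134) or wild-type replicate 1 (0.191) was dropped. With 20 reads required, the difference was -0.157 points within 1 Mb, -0.351 at 1 to 3 Mb and 0.465 at 3 to 5 Mb, and the last was 0.567 when weighted by reads and ran between -1.29 and 1.04 with 1 library left out (0.301 without knock-in replicate 3). The cause was not tested. Separated positions numbered 7 higher and 4 lower with 20 reads (1.23% and 0.702%; autosomes 1.50% and 0.646%), 16 and 7 at means 20 points apart (0.795% and 0.348%; autosomes 1.13% and 0.379%), and 38 to 74 and 21 to 49 with 1 library left out (1.89% to 3.68% and 1.04% to 2.43%; autosomes 2.69% to 5.20% and 1.32% to 2.65%). Relaxed limits gave 1 switch-like member, and leaving out 1 library 0 to 4, with 4 without wild-type replicate 2. The knock-in-only share was 3.19% with 20 reads (rest of chromosome 1 3.39%), 11.2% when missing from the deep wild-type library only (12.01%), 1.79% when listed in all knock-in libraries (2.08%), and 11.2%, 24.3% and 44.2% without wild-type replicate 1, knock-in replicate 3 and knock-in replicate 1 in turn (12.01%, 26.9% and 46.6%). The wild-type-only share was 0.0920% with 20 reads (0.0924%), 0.0996% when listed in both wild-type libraries (0.0598%), and 2.26% and 17.0% without knock-in replicates 1 and 3 in turn (1.91% and 16.9%). Positions and tiles called stayed at 0 under each alternative run, among them edgeR's newer dispersion estimate, added after seeing the data. The flank count of positions missed between covered neighbours was 2 with 15 reads beside within 30 bases and 1 with 30 reads within 25 bases; that rule and its limits were chosen after seeing the data. Wild-type replicate 1 sets the lowest depth.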
